A study of Mus musculus with 32 samples.

Results

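The unfolded protein response and the wider stress response, represented by 9 genes, were followed through tumor-specific CD8 T cells of the mouse. They are the endoplasmic reticulum (ER) chaperone and folding genes Hspa5, Pdia4 and Dnajb9, the ER-associated degradation gene Herpud1, the transcription factor genes Xbp1, Atf4 and Ddit3, and the stress targets Trib3 and Chac1. They were picked by name from the 46517 genes of the table, and all 9 were among the 19738 genes tested. The RNA came from 32 bulk libraries of sorted CD8+ Thy1.1+ cells. These Pmel cells all express 1 transgenic receptor, specific for an antigen that melanocytes and melanoma share. The mice were C57BL/6, aged 16 weeks, and every group, naive cells included, is labelled as melanoma-associated vitiligo, a loss of skin pigment that accompanies the immune response to the tumor.

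The 8 groups held 4 libraries each. Cells from skin, lung and liver were taken 45 days after tumor surgery, as were the memory cells of the draining lymph node. Tumor-infiltrating cells, cells from spleen and naive cells from spleen made up a further 3 groups, with sampling times not given in the sources used. The remaining group was the tumor-draining lymph node on day 12. The labels do not say that each library came from a separate animal, so the spread behind the p-values may be technical. Values are TPM, a share of all transcripts that is scaled by length and can be compared between genes. Read counts were not used here and the depth of each library is unknown.

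The unfolded protein response adjusts the folding capacity of the ER to its load of secretory and membrane proteins. The ER sensor IRE1 splices Xbp1 RNA into the form that codes for an active transcription factor, the sensor ATF6 is cleaved to release another factor, and the kinase PERK phosphorylates eIF2, which slows translation in general but favours that of ATF4. ATF4 is also reached from other eIF2 kinases, that is, without ER stress, and it drives Ddit3, Trib3 and Chac1. In T cells the response is known for accompanying the growth of the secretory apparatus in effector cells. Gene-level TPM shows neither Xbp1 splicing nor ATF4 translation, so the values below are RNA levels only.

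Known binding elements of these factors were looked for in the RefSeq promoter windows of the 9 genes, which run from 250 bases before to 50 bases after the start (build GRCm38.p6, both strands). Distances are counted from the RefSeq start, while the gene positions given further on are GENCODE's, and the 2 starts coincided for Atf4 and lay 9 to 258 bases apart for the other 8 genes. The ER stress response element, CCAAT and CCACG with 9 bases between them, lay in the window of Hspa5, 65 to 47 bases before its RefSeq start, and in 0.119% of all 32851 windows. That RefSeq start is 120 bases downstream of the GENCODE start, so that in the GENCODE gene the element is at bases 56 to 74, inside the gene. The related element ERSE-II, ATTGG and CCACG with 1 base between them, lay in that of Herpud1, 52 to 42 bases before the start, and in 0.0365% of all windows. The composite C/EBP-ATF element, TGATGNAA, lay on the minus strand 112 to 105 bases before the start of Herpud1 and 193 to 186 bases before that of Chac1, and in 3.97% of all windows. In Trib3 the only match, TTACATCA, was inside the RefSeq transcript, at bases 15 to 22, which is 14 to 7 bases before the GENCODE start. The matches of Herpud1 and Chac1 lay before both starts. None of these 3 elements was found in the windows of Pdia4, Dnajb9, Xbp1, Atf4 or Ddit3. The core TGACGTGG was in none of the 9 windows and in 0.676% of all windows. No match overlapped another. A match is a description of the letters and not a bound site. The 3 stretches below, all before the RefSeq start and that of Hspa5 inside the GENCODE gene, are shown because they let the elements be compared base by base, with each match in capitals, read 5′ to 3′ on the plus strand of chr2:34772020-34772048 for Hspa5, chr8:94386179-94386428 for Herpud1 and chr2:119351044-119351061 for Chac1.
Hspa5: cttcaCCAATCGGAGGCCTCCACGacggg
Herpud1: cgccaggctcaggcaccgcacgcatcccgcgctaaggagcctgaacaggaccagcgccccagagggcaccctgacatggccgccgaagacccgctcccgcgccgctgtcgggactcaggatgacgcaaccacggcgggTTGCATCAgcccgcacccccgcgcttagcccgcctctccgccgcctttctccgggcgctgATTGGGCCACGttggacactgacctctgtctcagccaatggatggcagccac
Chac1: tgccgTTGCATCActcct

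Of the 32 libraries, 5 had summed TPM of 12 T cell marker genes below 0.5 of the median of all libraries. They were liver replicates 2, 3 and 4, skin replicate 4 and tumor replicate 4. Between 10732 genes, in liver replicate 2, and 34211 genes lay above 0 in a library. The within-group standard deviation (SD) of all tested genes on the log2 scale was 1.33 in liver, 0.961 in lung, 0.892 in spleen, 0.847 in skin, 0.615 in lymph node memory cells, 0.512 in tumor, 0.387 in naive cells and 0.303 in the day 12 lymph node. The linear model of all 8 groups uses 1 common spread per gene, so changes between the tighter groups were tested against the spread of the looser ones as well. Results that turn on this are given with a fit of only the groups compared. None of the 12 T cell markers was at 0 in all 4 libraries of any group.

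Across the 8 groups together, Dnajb9, Hspa5, Atf4 and Trib3 differed (adjusted p = 1.87e-05, 0.0111, 0.000939 and 0.00362 in the limma F-test), and Pdia4, Herpud1, Xbp1, Ddit3 and Chac1 did not pass (adjusted p between 0.107 and 0.596). That is 4 of 9 genes, beside 46.9% of all genes tested. In skin, 3 of the 9 were higher than in spleen, where 7.68% of all genes were called, and 2 were higher than in tumor, where 7.34% were. Liver had 1 of the 9 higher than spleen, where 13.6% of all genes were called. In the other 6 comparisons no gene of the 9 passed an adjusted p of 0.05, although 7 of the 9 did not overlap between the day 12 lymph node and naive cells, as was true of 51.3% of all genes.

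**Figure D1:**
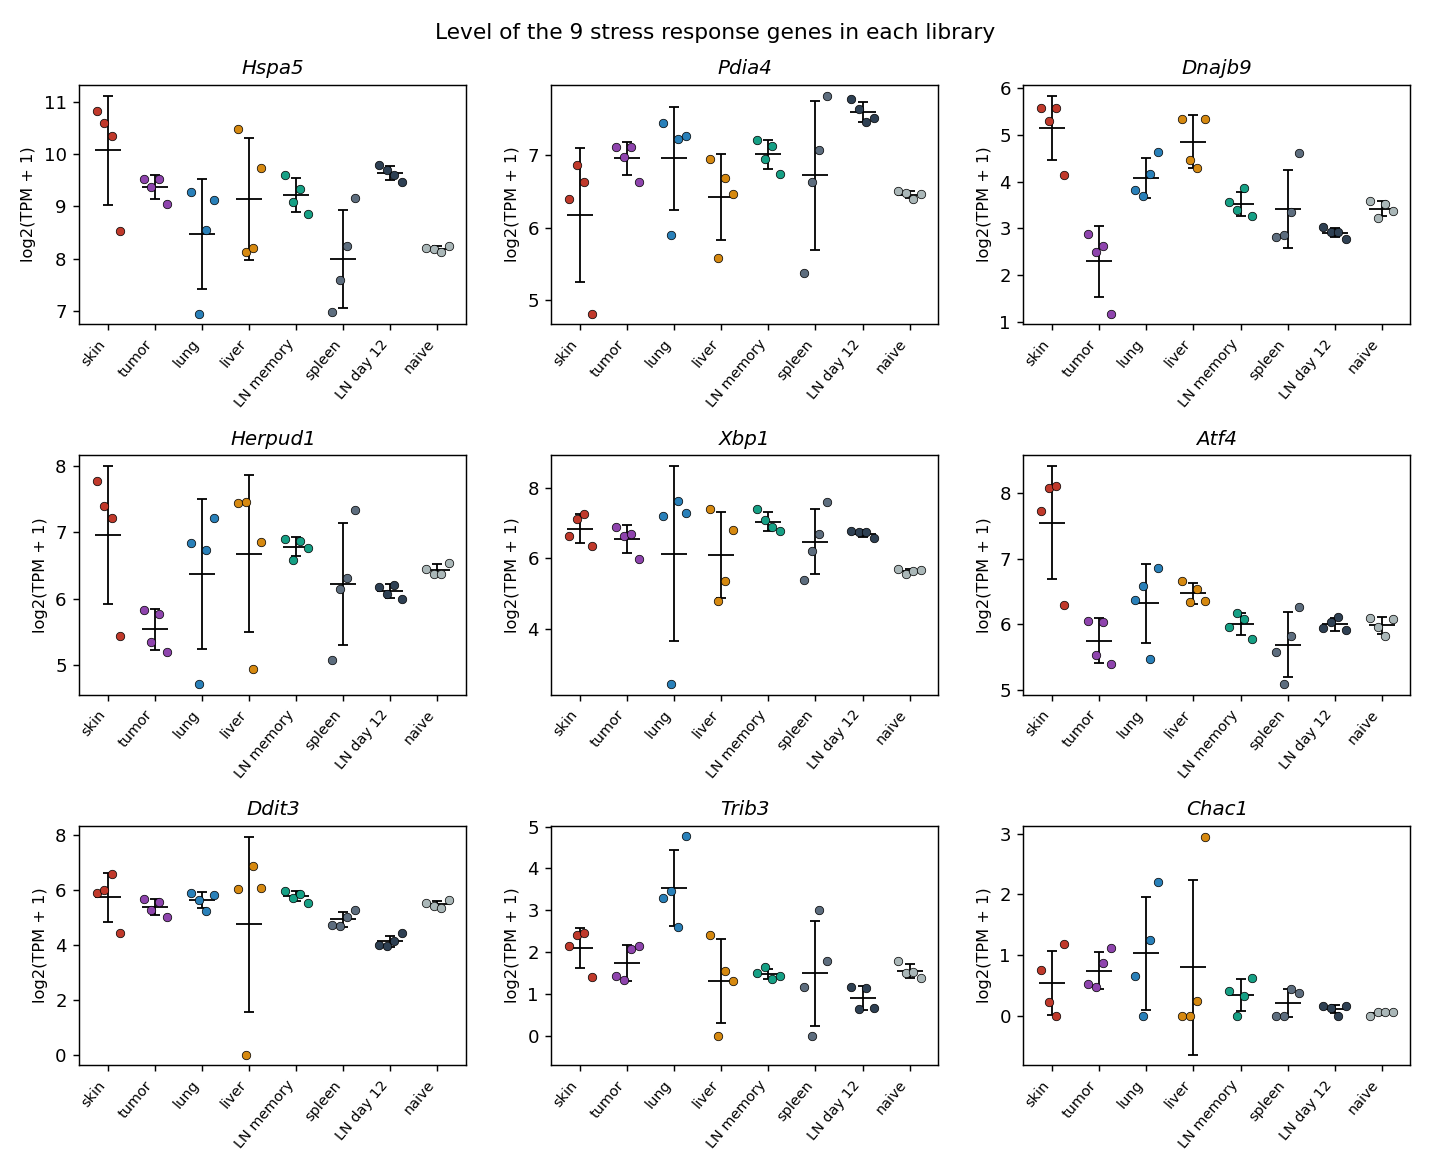
Level of each of the 9 genes as log2(TPM + 1) in the 32 libraries, with 4 points per group and the mean and SD of the group as a bar with whiskers (LN, lymph node). Skin holds the highest points of Hspa5 and Atf4, tumor the lowest of Dnajb9, and day 12 lymph node and naive points lie close together within their groups.

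Hspa5 (chr2:34771970-34777547, plus strand, build GRCm38) codes for BiP, the main Hsp70 chaperone of the ER lumen, which also holds the stress sensors inactive. It was the most abundant of the 9 genes, with a median of 564 TPM over the libraries. It had 1803, 1537, 1292 and 370.4 TPM in skin, against 126, 193, 304 and 570.2 TPM in spleen. Skin replicates 1 to 3 lay above all spleen libraries and skin replicate 4 lay within them. Hspa5 was higher in skin by 2.07 ± 0.51 on the log2 scale (SE, adjusted p = 0.00907). Leaving out any 1 of the 32 libraries gave an adjusted p between 0.000857 and 0.0474, while a fit of only these 2 groups gave 0.181. In tumor it had 739, 658, 734 and 530.1 TPM, and the difference of skin over tumor, 0.70 ± 0.51, did not pass (adjusted p = 0.531). The day 12 lymph node had 881, 831, 776 and 709 TPM, against 296, 292, 278 and 302 TPM in naive cells. These groups did not overlap, and the log2 difference of 1.45 ± 0.51 missed the threshold in the fit of all groups (adjusted p = 0.0661). It passed with only the 2 groups (adjusted p = 2.1e-06) and without any 1 of skin replicate 4, lung replicate 2, liver replicate 1 and liver replicate 2 (0.0341 to 0.0451). Tumor cells likewise lay above naive cells without overlap, by 1.17 ± 0.51 (adjusted p = 0.123, and 0.00029 with only the 2 groups). By mean log2 level the order was skin, day 12 lymph node, tumor, lymph node memory, liver, lung, naive and spleen, and every pair of neighbours in it overlapped. Hspa5 averaged 417 ± 221 TPM in lung, 715 ± 547 TPM in liver and 605 ± 134 TPM in lymph node memory cells (SD, n = 4 each).

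Pdia4 (chr6:47796141-47813430, minus strand) codes for ERp72, a protein disulfide isomerase that forms and rearranges disulfide bonds in the ER. It ranged from 27.3 TPM, in skin replicate 4, to 225 TPM, in spleen replicate 4. The day 12 lymph node had 218, 197, 175 and 182 TPM, against 89.6, 88.1, 83.1 and 87.2 TPM in naive cells. The groups did not overlap and differed by 1.14 ± 0.42 (adjusted p = 0.0845, and 6.07e-06 with only the 2 groups). Memory cells of the lymph node had 147, 123, 139 and 106 TPM, below every library of the day 12 node, with a difference of -0.58 ± 0.42 (adjusted p = 0.494, and 0.00826 with only the 2 groups). Unlike Hspa5, Pdia4 had its lowest mean in skin, with 83.3, 116, 98.0 and 27.3 TPM, against 40.5, 97.9, 133 and 225 TPM in spleen. That difference, -0.54 ± 0.42, lay within the spread (adjusted p = 0.569). The lowest rank of skin depended on skin replicate 4. Without replicate 4 of each group, Pdia4 averaged 99.0 TPM in skin, against 90.6 TPM in spleen, 90.5 TPM in liver and 86.9 TPM in naive cells. The other groups averaged 124 ± 18.7 TPM in tumor, 133 ± 50.9 TPM in lung and 89.7 ± 31.8 TPM in liver. From the highest mean log2 level down, the order for Pdia4 was the day 12 node, lymph node memory cells, lung, tumor, spleen, naive cells, liver and skin.

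Dnajb9 (chr12:44205559-44210326, minus strand) codes for ERdj4, a J-domain co-chaperone of BiP that also restrains IRE1. Skin had 46.6, 38.5, 46.9 and 16.6 TPM, against 6.35, 4.68, 5.17 and 1.27 TPM in tumor. All 4 skin libraries lay above all 4 tumor libraries. The log2 difference was 2.85 ± 0.40 (adjusted p = 1.48e-05), the largest of the 9 genes in any of the 9 comparisons, and it passed without each library in turn and with only the 2 groups (adjusted p = 0.0101). Spleen had 6.1, 6.22, 9.16 and 23.3 TPM, so that 3 of 4 skin libraries lay above all of spleen and skin replicate 4 did not. Dnajb9 was higher in skin than in spleen by 1.74 ± 0.40 (adjusted p = 0.0055), which passed without each library in turn but not with only the 2 groups (adjusted p = 0.164). Liver had 39.6, 21.2, 18.5 and 39.3 TPM, with 2 of 4 libraries above all of spleen. The difference of liver over spleen was 1.45 ± 0.40 (adjusted p = 0.0201). It ended at an adjusted p of 0.0524 without spleen replicate 1, of 0.0556 without spleen replicate 2 and of 0.429 with only the 2 groups.

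In tumor Dnajb9 lay below naive cells, which had 10.9, 8.34, 10.5 and 9.38 TPM, and the groups did not overlap. The difference was -1.13 ± 0.40 (adjusted p = 0.0572), and it depended on tumor replicate 4, whose removal left -0.75 (adjusted p = 0.277). Removal of any 1 of tumor replicate 1, skin replicate 4, spleen replicate 4 and liver replicate 2 brought it to between 0.0352 and 0.0413. Hspa5 was above naive cells in the same 4 tumor libraries, so that the chaperone and its co-chaperone lay on opposite sides of the naive level there. In the day 12 lymph node Dnajb9 had 7.14, 6.57, 6.57 and 5.89 TPM, again below every naive library, while Hspa5 was above every one. Lung averaged 16.5 ± 5.44 TPM and lymph node memory cells 10.6 ± 2.15 TPM. From the highest mean log2 level down, Dnajb9 was ordered skin, liver, lung, lymph node memory cells, naive cells, spleen, the day 12 node and tumor, and every pair of neighbours overlapped.

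Herpud1 (chr8:94386438-94395377, plus strand) codes for an ER membrane protein of the degradation machinery that returns misfolded proteins to the cytosol. Skin had 217, 167, 148 and 42.2 TPM, against 56.2, 39.7, 53.6 and 35.9 TPM in tumor. The difference, 1.41 ± 0.52, did not pass (adjusted p = 0.107, and 0.126 with only the 2 groups). Of the 32 fits that each left out 1 library, 1 passed, without skin replicate 4 (1.92, adjusted p = 0.0154). Tumor lay below all naive libraries, which had 86.8, 82.0, 81.6 and 92.3 TPM, by a difference of -0.90 ± 0.52 (adjusted p = 0.274, and 0.00183 with only the 2 groups). Means in the remaining groups were 97.9 ± 51.6 TPM in lung, 123 ± 68.3 TPM in liver, 109 ± 10.6 TPM in lymph node memory cells, 85.5 ± 53.6 TPM in spleen and 68.5 ± 4.82 TPM in the day 12 node. Tumor had the lowest mean log2 level of all groups and skin the highest, and all neighbours in the order overlapped except the day 12 node and tumor.

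Xbp1 (chr11:5520659-5525893, plus strand) codes for the factor that IRE1 activates and which drives chaperone and secretory genes. Its median over the libraries was 104 TPM. It had 109, 106, 106 and 94.0 TPM in the day 12 lymph node, against 50.9, 46.4, 49.2 and 49.98 TPM in naive cells. The groups did not overlap and differed by 1.06 ± 0.70, which did not pass in the fit of all groups (adjusted p = 0.409, and 2.83e-06 with only the 2 groups). In tumor it had 119, 99.1, 102 and 62.2 TPM, again above every naive library, by 0.91 ± 0.70 (adjusted p = 0.424, and 0.00419 with only the 2 groups). Naive cells had the lowest mean level of the 8 groups. Lymph node memory cells had the highest, with 167, 137, 119 and 109 TPM. Means elsewhere were 118 ± 33.1 TPM in skin, 87 ± 66.6 TPM in liver and 103 ± 66.6 TPM in spleen, and all neighbours in the order overlapped. Lung replicate 2, with 4.37 TPM against 147, 198 and 156 TPM in the other lung libraries, widened the common spread, and without it Xbp1 passed the test across the 8 groups (adjusted p = 0.0387).

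Atf4 (chr15:80255184-80257541, plus strand) codes for the factor at the centre of the integrated stress response. Skin had 211, 269, 275 and 77.4 TPM, against 46.9, 33.1, 55.5 and 76.1 TPM in spleen. All skin libraries lay above all spleen libraries, although skin replicate 4 did so by little. The difference was 1.86 ± 0.33 (adjusted p = 0.000348), with a range of 1.66 to 2.28 when each library was left out. A fit of only these 2 groups gave an adjusted p of 0.106. Tumor had 65.6, 45.2, 64.4 and 41.0 TPM, below every skin library, and the difference of skin over tumor was 1.8 ± 0.33 (adjusted p = 0.000568, and 0.0395 with only the 2 groups). Liver had 101, 79.7, 91.7 and 80.9 TPM, above every spleen library. The difference of 0.78 ± 0.33 did not pass (adjusted p = 0.102, and 0.447 with only the 2 groups). Of the 32 fits that each left out 1 library, 1 passed, without skin replicate 4 (adjusted p = 0.0461). Lymph node memory cells averaged 63.4 ± 7.5 TPM, the day 12 lymph node 63.1 ± 4.22 TPM and naive cells 62.6 ± 5.53 TPM (SD, n = 4 each). These 3 groups overlapped, with differences of 0.00 ± 0.33 and 0.01 ± 0.33 on the log2 scale between day 12 and the others. Lung averaged 83.7 ± 30.1 TPM. Skin stood at the top of the order by mean log2 level, 1.08 above liver, and overlapped with it through skin replicate 4, as did all later neighbours with each other.

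Ddit3 (chr10:127290829-127293753, plus strand) codes for CHOP, a C/EBP factor that ATF4 induces and that is linked to cell death under lasting stress. The day 12 lymph node had 14.9, 14.5, 16.4 and 20.3 TPM, the lowest mean of the 8 groups, against 45.0, 41.9, 39.5 and 48.2 TPM in naive cells. The groups did not overlap and differed by -1.36 ± 0.78 (adjusted p = 0.323). Lymph node memory cells had 61.1, 51.4, 57.0 and 45.1 TPM, above every library of the day 12 node, with a difference of 1.64 ± 0.78 (adjusted p = 0.227). Both differences were tested against a spread set by liver, where Ddit3 is listed at 0 in replicate 2 and at 64.8, 116 and 65.0 TPM in the others. Without liver replicate 2 the day 12 node was lower than naive cells (adjusted p = 0.00196) and memory cells were higher than the day 12 node (adjusted p = 0.000465), at the same log2 differences. With only the groups compared, these values were 2.64e-05 and 0.000198. Liver against spleen stood at 1.41 (adjusted p = 0.00956) without liver replicate 2 and at -0.17 ± 0.78 with it. Spleen itself had 25.2, 24.8, 30.8 and 37.5 TPM. Means elsewhere were 58.7 ± 29.9 TPM in skin, 41.1 ± 8.04 TPM in tumor and 49.3 ± 9.35 TPM in lung. In the order of mean log2 levels, which begins with lymph node memory cells, all neighbours overlapped.

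Trib3 (chr2:152337422-152344032, minus strand), a pseudokinase that is induced by ATF4 and CHOP, was low in most libraries, with a median of 1.87 TPM. Lung had 8.87, 10.03, 5.11 and 26.4 TPM, against 1.26, 0, 7.03 and 2.47 TPM in spleen. In lung, 3 of 4 libraries lay above all of spleen. The difference of 2.04 ± 0.50 did not pass in the fit of all groups (adjusted p = 0.0935) or with only the 2 groups. Of the 32 fits that each left out 1 library, 1 passed, without spleen replicate 3 (2.55, adjusted p = 0.0136). Without spleen replicate 2 the adjusted p was 0.271. Lung also lay above skin, the next group in the order of means, which had 3.41, 4.3, 4.51 and 1.65 TPM. Means in the other groups were 2.48 ± 1.02 TPM in tumor, 1.8 ± 0.241 TPM in lymph node memory cells, 0.905 ± 0.381 TPM in the day 12 node and 1.94 ± 0.353 TPM in naive cells. Liver had 4.28, 0, 1.92 and 1.47 TPM, the 0 again in replicate 2. With a pseudocount of 0.1 in place of 1 the test of Trib3 across the 8 groups gave an adjusted p of 0.0508.

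Chac1 (chr2:119351229-119354381, plus strand), which codes for a glutathione-degrading enzyme downstream of ATF4, is listed at 0 in 9 libraries and reached 1 TPM in 5. Its highest values were 6.73 TPM, in liver replicate 4, and 3.59 TPM, in lung replicate 4, while naive cells had at most 0.04 TPM. Liver replicate 4 had 13500 TPM of myeloid and 1590 TPM of T cell markers, and lung replicate 4 had 8540 and 7850 TPM. The part of other cells in these values was not tested. Tumor had 0.43, 0.39, 0.82 and 1.16 TPM, above every naive library, by 0.70 ± 0.45 (adjusted p = 0.324, and 0.00609 with only the 2 groups). At these levels the log2(TPM + 1) scale understates changes and no fold is given against libraries at 0.

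Among the 63 pairs of neighbouring groups in the 9 orders, 60 overlapped. The exceptions were the day 12 node over lymph node memory cells for Pdia4, the day 12 node over tumor for Herpud1 and lung over skin for Trib3. Each of these reached the smallest two-sided exact permutation p that 4 against 4 libraries allow, 0.0286, which was 0.601 after adjustment over the 63 pairs.

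**Figure D2:**
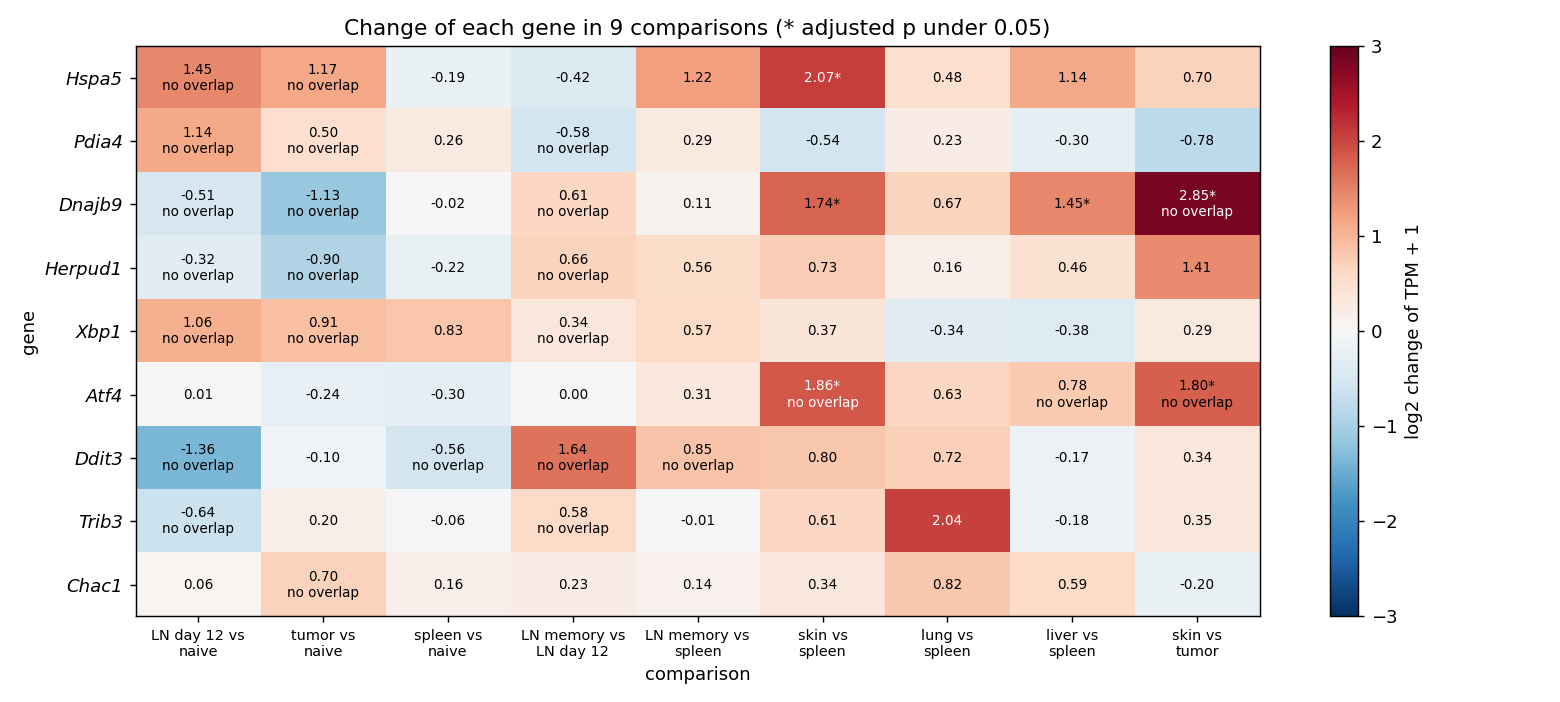
Log2 change of TPM + 1 of the 9 genes in the 9 comparisons, as colour and number, with the named group first in each label over its comparison group. Asterisks mark an adjusted p under 0.05 and "no overlap" marks genes whose 4 libraries all lie on 1 side of the other 4. Asterisks appear in the skin and liver columns only, while "no overlap" is most frequent in the 3 columns that set day 12 node or tumor against naive cells or memory against the day 12 node.

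Skin against spleen asks how Pmel cells in the tissue where vitiligo arises differ from those in a lymphoid organ. In skin, 3 of 9 genes were higher (Hspa5, Atf4 and Dnajb9) and none was lower, beside 7.68% of all genes called in either direction and 4.33% called higher. The median change of the 9 was 0.73, against -0.12 over all genes tested, and 8 of 9 changes were positive. Atf4 alone did not overlap, beside 9.09% of all genes. All 3 calls held without each library in turn, and with only the 2 groups none did, where 1.37% of all genes were called. Without the 5 libraries low in T cell markers, Ddit3 was called as well, at 1.23 ± 0.21 (adjusted p = 0.000192), beside 13.3% of all genes.

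In the wider lists, 2 of 12 sensor, eIF2 kinase and phosphatase genes were higher in skin than in spleen. They were Ppp1r15a, the stress-induced subunit that directs a phosphatase to eIF2, at 3.64 ± 0.43 (adjusted p = 8.25e-07), and Ern1, which codes for IRE1, at 2.71 ± 0.60 (adjusted p = 0.00364). Of 26 ATF4 target genes, 4 were higher and none lower (7 higher without the libraries low in T cell markers), among them the transcription factor genes Atf3, with 292 ± 145 TPM in skin and 2.59 ± 4.12 TPM in spleen, and Cebpb, and the stress-induced nuclear protein gene Nupr1. Of the 17 other ER chaperone and folding genes tested, 0 passed in limma and 1 had an unadjusted p under 0.05, with a median change of 0.23. That count was 5 without the 5 libraries low in T cell markers. With only the 2 groups, 2 sensor genes and 1 ATF4 target were higher. None of 15 ER-associated degradation and 18 translocation and exit genes passed (1 and 0 at an unadjusted p under 0.05).

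Immediate early genes and other-cell markers also differed between skin and spleen. The 8 immediate early genes (such as Fos, Jun and Egr1) summed to 4230 to 16800 TPM in skin, against 259 to 1060 TPM in spleen, and all 8 were higher in skin. The 8 cytosolic heat shock genes summed to 1560 to 9640 TPM in skin, against 499 to 2500 TPM in spleen, and 5 of 8 were higher. The 8 keratinocyte markers summed to 150 to 2460 TPM in skin, against 12.7 to 19.2 TPM in spleen, where 2 were at 0 in all 4 libraries. The 8 B cell markers summed to 6.44 to 15.2 TPM in skin, against 470 to 2620 TPM in spleen, and the 8 plasma cell markers to 14.6 to 73.6 TPM, against 1060 to 13600 TPM. Skin was digested for 45 minutes, liver for 40 minutes and lung for 30 minutes, each at 37 °C, per the labels' protocols. No source used here gives the sampling time of spleen or describes how it was dissociated. Tissue, time and handling therefore cannot be told apart in skin, liver or lung against spleen. The part of these genes and cells in the result was not tested. In bulk RNA, fewer cells of a type and less RNA per cell cannot be told apart.

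Skin replicate 4 had the lowest value of its group for 8 of the 9 genes, and spleen replicate 4 the highest for 7. Skin replicate 4 had 1710 TPM of T cell markers and 2460 TPM of keratinocyte markers, and spleen replicate 4 had 5130, 2620, 13600 and 7040 TPM of T cell, B cell, plasma cell and myeloid markers. For Hspa5 and Dnajb9 both lay between the other 3 libraries of each group.

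**Figure D3:**
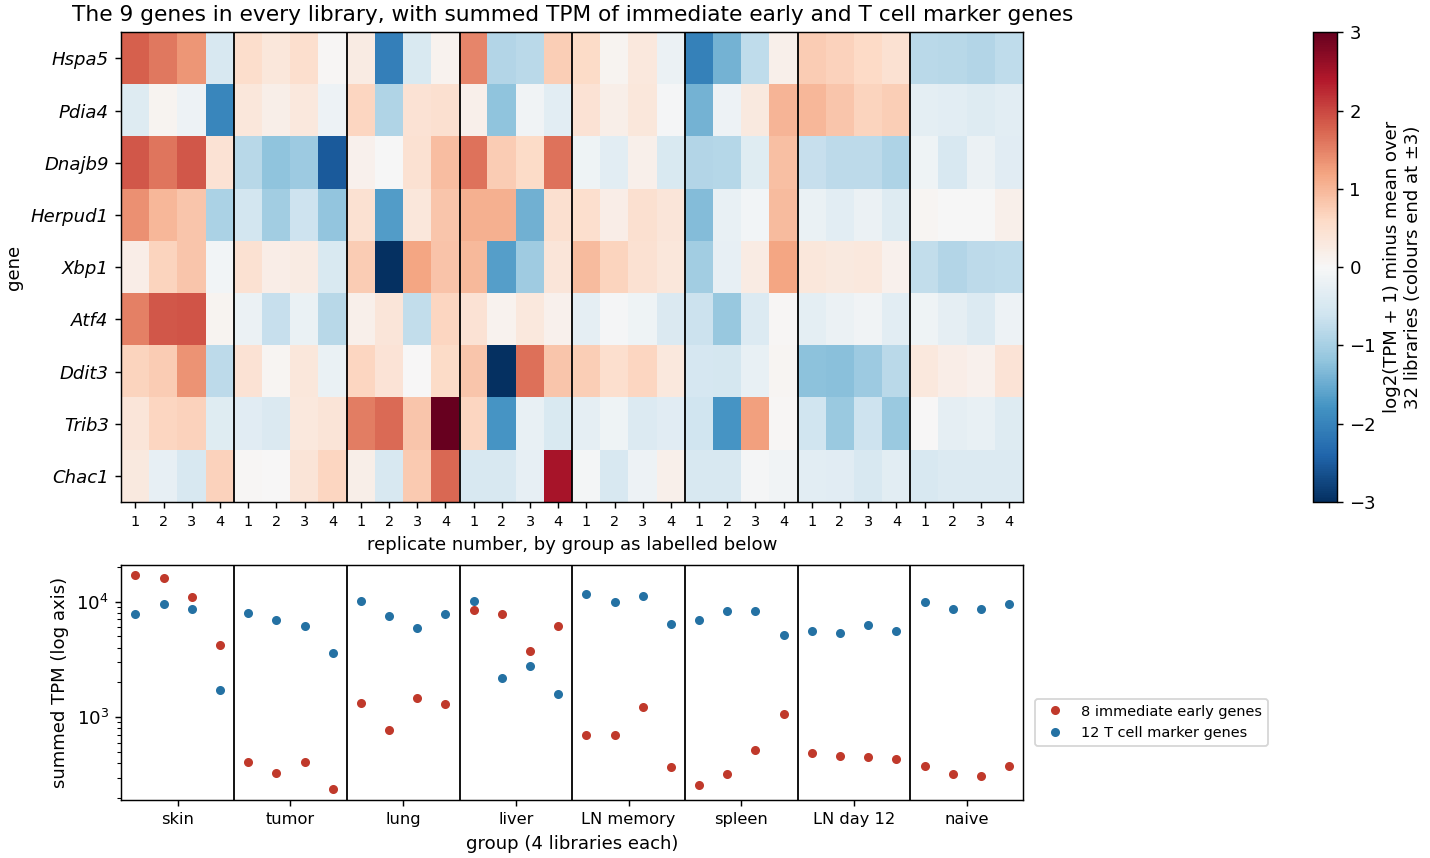
Upper panel: log2(TPM + 1) of the 9 genes in every library, minus the gene's mean over the 32 libraries, with replicates 1 to 4 side by side in each group. Lower panel: summed TPM of 8 immediate early and 12 T cell marker genes in the same libraries on a log axis. Skin and liver hold the highest immediate early sums (3700 to 16800 TPM), and skin replicate 4 is low both in T cell markers and in most of the 9 genes.

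Skin against tumor sets memory-phase cells of the skin beside cells from the tumor. Skin was digested for 45 minutes at 37 °C. No source used here gives the sampling time or the dissociation of the tumor. Tissue, time and handling therefore cannot be told apart in this comparison. Of the 9 genes, Dnajb9 and Atf4 were higher in skin and none was lower, beside 7.34% of all genes called and 3.79% called higher. Neither overlapped between the groups, beside 15.5% of all genes. The median change was 0.35, against -0.09 over all genes tested. Hspa5 and Ddit3 had 3 of 4 skin libraries above all of tumor and did not pass (adjusted p = 0.531 and 0.901). In the sensor list Ppp1r15a was higher by 4.60 ± 0.43 (adjusted p = 1.15e-08), with 385 ± 184 TPM in skin and 13.4 ± 4.26 TPM in tumor, and Ern1 was higher by 2.15 ± 0.60 (adjusted p = 0.0231). Eif2s1, the eIF2 subunit that the kinases phosphorylate, was lower in skin, at -1.43 ± 0.36 (adjusted p = 0.0119). Of 26 ATF4 targets 4 were higher, with Atf3, Cebpb and the sestrin gene Sesn2 changing most, and 2 were lower. These counts were 3 and 3 with only the 2 groups, 6 and 6 with weights per group, 5 and 5 without the libraries low in T cell markers, and 4 and 1 with no filter on low values, with a pseudocount of 0.1 or with a replicate block. Of 17 chaperone genes 0 passed (2 at an unadjusted p under 0.05), with a median of -0.42, and of 18 translocation genes Ssr2, a subunit of the translocon-associated complex, was lower, at -1.19 ± 0.27 (adjusted p = 0.00533). The immediate early genes summed to 4230 to 16800 TPM in skin, against 239 to 412 TPM in tumor, and all 8 were higher in skin. The 7 melanocyte and melanoma markers summed to 3.97 to 205 TPM in skin, against 362 to 849 TPM in tumor. Keratinocyte markers summed to 150 to 2460 TPM in skin, against 16.9 to 90.8 TPM in tumor, and myeloid markers to 26.3 to 5300 TPM, against 166 to 418 TPM. Their part in the result was not tested.

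Liver against spleen gave 1 of 9 genes higher, Dnajb9, and 0 lower, beside 13.6% of all genes called and 2.45% called higher. The median change of the 9 was 0.46, against -0.53 over all genes tested, and only Atf4 did not overlap, beside 7.17% of all genes. Ppp1r15a at 3.52 ± 0.43 (adjusted p = 6.58e-06) and Ern1 at 1.97 ± 0.60 (adjusted p = 0.0305) were higher in the sensor list, and Atf3 and Cebpb were among 3 higher ATF4 targets. Shmt2, a mitochondrial enzyme of serine metabolism, was the only ATF4 target called lower, at -1.91 ± 0.64 (adjusted p = 0.0468). The count of lower targets was 0 with no filter, weights per group, quantile normalization or without the libraries low in T cell markers, and 2 with a filter of 5 TPM or a replicate block. Sensor genes called higher numbered 1 with no filter, with weights or without those libraries. Of 17 chaperone genes 0 passed in limma (2 at an unadjusted p under 0.05). Immediate early genes summed to 3700 to 8450 TPM in liver, against 259 to 1060 TPM in spleen, and all 8 were higher. T cell markers summed to 1590 to 10100 TPM in liver, against 5130 to 8350 TPM in spleen, and the 9 hepatocyte markers to 747 to 27500 TPM, against 3.54 to 83 TPM. What these contribute was not tested, and with only the 2 groups limma called 0 of all genes (2199 at an unadjusted p under 0.05). Without the 5 libraries low in T cell markers liver keeps replicate 1 alone, which is then assumed to vary like the other groups. Dnajb9, Hspa5 and Ddit3 passed there, at 1.94 ± 0.47, 2.49 ± 0.61 and 1.12 ± 0.30 (adjusted p = 0.0223, 0.024 and 0.0437), beside 3.01% of all genes.

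Lung against spleen had 0 of 9 genes called (1 at an unadjusted p under 0.05, Trib3), beside 0.111% of all genes. The median change was 0.63, against 0.04 over all genes tested, and 8 of 9 were positive. All 9 overlapped between the groups, whereas 1.82% of all genes did not. No gene of the 5 wider lists passed, and 0 of 17 chaperone and 5 of 26 ATF4 target genes had an unadjusted p under 0.05. Immediate early genes summed to 782 to 1460 TPM in lung, against 259 to 1060 TPM in spleen, and 0 of 8 were called (4 at an unadjusted p under 0.05). Lung replicate 2 had the lowest value of its group for 6 of the 9 genes. Plasma cell markers summed to 85.9 to 38300 TPM in lung, lowest in replicate 2 and highest in replicate 3, against 1060 to 13600 TPM in spleen. Myeloid markers summed to 1180 to 9490 TPM, against 425 to 7040 TPM, and lung epithelium markers to 32.1 to 3270 TPM, against 2.99 to 13.7 TPM. B cell markers were at 73.1 to 599 TPM, against 470 to 2620 TPM. Their part was not tested.

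The day 12 comparison sets cells of the tumor-draining lymph node beside naive cells from spleen. Organ and activation differ together in it and cannot be told apart. None of the 9 passed in the fit of all groups (2 at an unadjusted p under 0.05, Hspa5 and Pdia4), beside 11.1% of all genes. Without overlap, 3 were higher than in naive cells (Hspa5, Pdia4 and Xbp1) and 4 lower (Dnajb9, Herpud1, Ddit3 and Trib3), beside 51.3% of all genes that did not overlap in this comparison. With only the 2 groups these same 7 genes passed, beside 54.4% of all genes, and with weights per group 6 passed, beside 56.7%. Of all genes, 3856 were higher and 6263 lower without overlap.

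Of the 17 genes tested in the wider chaperone list, 6 were higher in the day 12 lymph node, 0 were lower and the others did not pass, with a median change of 1.24, against -0.19 over all genes, and 16 of 17 changes were positive. Sdf2l1, a partner of ER J proteins, was higher by 3.12 ± 0.36 (adjusted p = 2.57e-07), with 351 ± 11 TPM in the day 12 node and 39.7 ± 4.19 TPM in naive cells. Creld2 was higher by 2.01 ± 0.38 (adjusted p = 0.000393) and the disulfide isomerase gene Pdia6 by 1.89 ± 0.36 (adjusted p = 0.000405). With only the 2 groups 15 of 17 were higher and with weights per group 14, in both cases with 0 lower. In the degradation list Derl3, a derlin of the ER membrane that is also 1 of the plasma cell markers used here, was the only gene called, with 20.8 ± 1.49 TPM in the day 12 node and 0.34 ± 0.205 TPM in naive cells. In the fit of the 2 groups alone 4 degradation genes were higher and 4 lower. Of 18 translocation genes tested, Sec61b, at 1.19 ± 0.27 (adjusted p = 0.00243), and Ssr2, at 1.11 ± 0.27 (adjusted p = 0.00599), were higher, and with only the 2 groups 11 were higher and 1 lower.

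Of 26 ATF4 targets, 4 were higher in the day 12 node and 0 lower, although Atf4 itself differed by 0.01 ± 0.33. The 3 that changed most were enzymes of amino acid synthesis, namely asparagine synthetase (Asns, 3.75 ± 0.69, adjusted p = 0.000235), Psat1 (3.14 ± 0.54, adjusted p = 0.000111) and Phgdh (1.43 ± 0.43, adjusted p = 0.0252), of which Psat1 and Phgdh act in the serine pathway. The fit of only the 2 groups gave 16 higher and 2 lower targets. The targets Ddit3 and Trib3 lay below naive cells in the same libraries. None of the 12 sensor genes passed (2 at an unadjusted p under 0.05), and with only the 2 groups 2 were higher and 5 lower. T cell markers summed to 5380 to 6240 TPM in the day 12 node, against 8640 to 9850 TPM in naive cells, plasma cell markers to 92.7 to 130 TPM, against 10.7 to 35.4 TPM, and myeloid markers to 35.6 to 52.6 TPM, against 2.34 to 3.46 TPM. Their part was not tested. Immediate early sums were 435 to 491 TPM in the day 12 node, against 310 to 377 TPM in naive cells.

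Tumor against naive cells had 0 of 9 genes called (2 at an unadjusted p under 0.05, Hspa5 and Dnajb9), beside 15.3% of all genes. Without overlap 4 were higher (Hspa5, Pdia4, Xbp1 and Chac1) and 2 lower (Dnajb9 and Herpud1), beside 46.4% of all genes. With only the 2 groups 6 of 9 passed, beside 47.2% of all genes. Of 17 chaperone genes 3 were higher and 0 lower, namely Sdf2l1 at 2.11 ± 0.36 (adjusted p = 0.000102), Creld2 at 1.42 ± 0.38 (adjusted p = 0.0107) and Manf, a secreted ER stress protein, at 0.81 ± 0.25 (adjusted p = 0.024). With only the 2 groups 10 were higher and 3 lower. In the sensor list Atf6 was higher, with 8.52 ± 1.61 TPM in tumor and 1.31 ± 0.368 TPM in naive cells (adjusted p = 0.0116), and Ppp1r15a was lower, at -1.30 ± 0.43 (adjusted p = 0.0371), although with no filter on low values 0 sensor genes were lower. Of 26 ATF4 targets 5 were higher and 0 lower, led by Cebpb at 4.57 ± 0.59 (adjusted p = 1.52e-06), Asns at 3.79 ± 0.69 (adjusted p = 0.000197) and Nupr1 at 3.12 ± 0.84 (adjusted p = 0.0103), and 3 were higher with no filter. Of the 18 translocation genes Ssr2 was higher, at 0.97 ± 0.27 (adjusted p = 0.014), and none of the 15 degradation genes passed (2 at an unadjusted p under 0.05). A fit of only the 2 groups gave 10 higher and 2 lower ATF4 targets, 3 higher and 3 lower sensor genes, 4 higher and 3 lower translocation genes, and 1 higher and 5 lower degradation genes. Melanocyte and melanoma markers summed to 362 to 849 TPM in tumor, against 9.75 to 15.2 TPM in naive cells, and myeloid markers to 166 to 418 TPM, against 2.34 to 3.46 TPM. Their part was not tested. This comparison shares its naive libraries with the day 12 comparison. Tissue and activation differ together in it, and no source used here gives sampling times or the dissociation of tumor or spleen. Tissue, activation, time and handling therefore cannot be told apart.

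Lymph node memory cells against the day 12 node had 0 of 9 genes called (1 at an unadjusted p under 0.05, Ddit3), beside 7.41% of all genes. Memory cells were taken 45 days after tumor surgery, so time and surgery cannot be told apart in this comparison. Without overlap 5 were higher in memory cells (Dnajb9, Herpud1, Xbp1, Ddit3 and Trib3) and Pdia4 was lower, beside 37.4% of all genes. With only the 2 groups 5 of 9 passed, beside 35.1% of all genes. Of 17 chaperone genes 0 were higher and 2 lower in memory cells, Sdf2l1 at -1.15 ± 0.36 (adjusted p = 0.0493) and Manf at -0.88 ± 0.25 (adjusted p = 0.0255). Of 26 ATF4 targets 2 were higher and 2 lower. A fit of only the 2 groups gave 9 lower chaperone genes and 0 higher, 5 higher and 9 lower ATF4 targets, 4 higher and 1 lower sensor genes, and 1 higher and 8 lower translocation genes. The serine pathway enzyme Psat1 was lower, at -2.47 ± 0.54 (adjusted p = 0.0037), and Cebpb was higher, at 2.04 ± 0.59 (adjusted p = 0.0293). Bbc3, the gene of the death protein PUMA, was higher by 2.98 ± 0.45 (adjusted p = 9.11e-05), with 50.2 ± 32.5 TPM in memory cells and 4.51 ± 0.612 TPM in the day 12 node. Ern1 was the only sensor gene called, at 1.93 ± 0.60 (adjusted p = 0.046), and the sensor list had 0 higher with no filter on low values and 0 higher and 1 lower with quantile normalization. With no filter 1 chaperone gene was lower and 1 ATF4 target higher, and a pseudocount of 0.1 left 1 lower in each of these lists. B cell markers summed to 159 to 1550 TPM in memory cells, against 77.3 to 95.3 TPM in the day 12 node. Plasma cell markers summed to 219 to 3190 TPM, against 92.7 to 130 TPM, and myeloid markers to 53.1 to 456 TPM, against 35.6 to 52.6 TPM. The part of these cells was not tested.

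Spleen against naive cells and lymph node memory cells against spleen had 0 of 9 genes called, with 0 and 1 at an unadjusted p under 0.05 (Hspa5, at 1.22 ± 0.51). The background was 6.08% of all genes between spleen and naive cells and 0.481% between lymph node memory cells and spleen. Ddit3 alone did not overlap in either, with a difference of -0.56 ± 0.78 for spleen over naive cells (adjusted p = 0.762) and of 0.85 ± 0.78 for lymph node memory cells over spleen (adjusted p = 0.743). In those comparisons 19.6% and 5.39% of all genes did not overlap. Without the 5 libraries low in T cell markers Ddit3 passed between lymph node memory cells and spleen (adjusted p = 0.0161). Of the wider lists, Sdf2l1, Bbc3 and Cebpb were higher in spleen than in naive cells. Plasma cell markers summed to 1060 to 13600 TPM in spleen, against 10.7 to 35.4 TPM in naive cells, B cell markers to 470 to 2620 TPM, against 25.3 to 36.6 TPM, and myeloid markers to 425 to 7040 TPM, against 2.34 to 3.46 TPM, and their part was not tested. Between lymph node memory cells and spleen none of the listed genes passed (5 of 17 chaperone genes at an unadjusted p under 0.05).

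**Figure D4:**
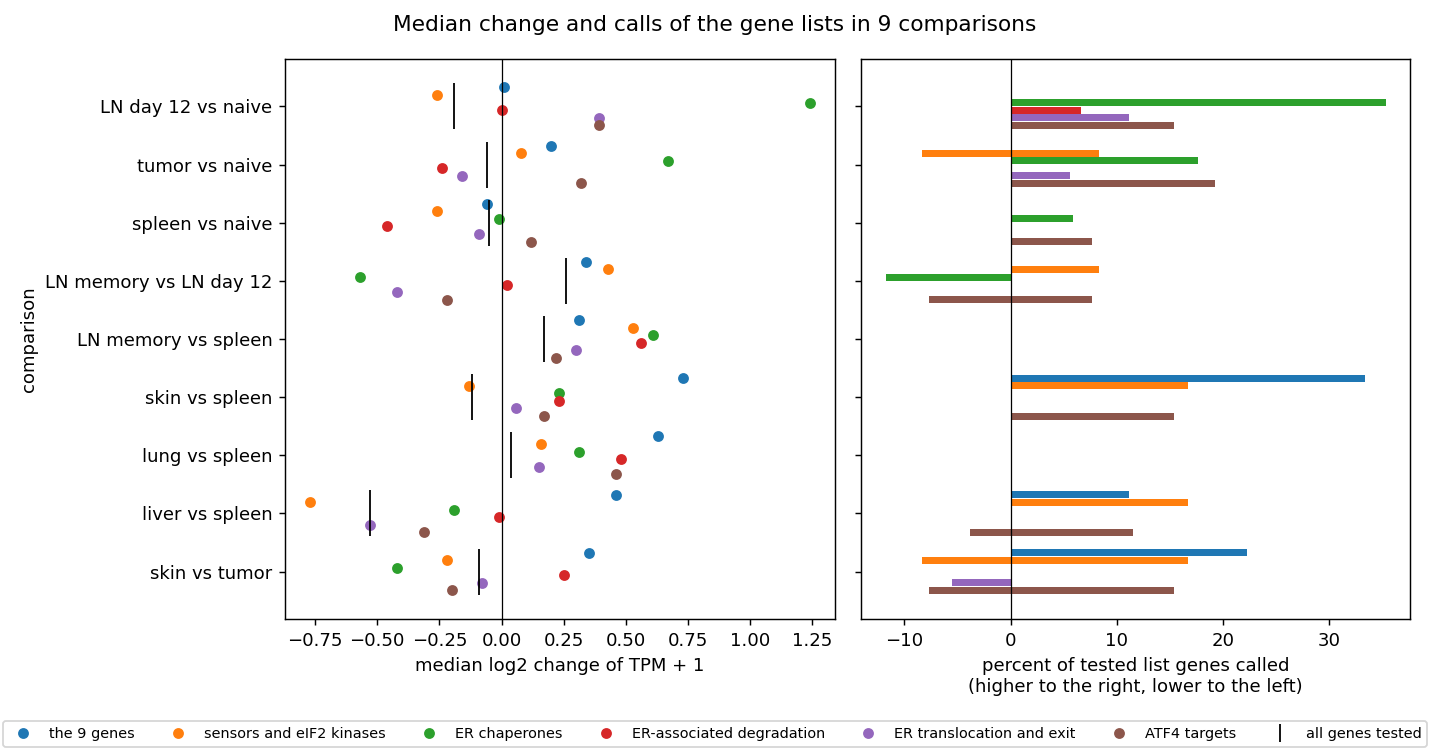
Left: median log2 change of the 9 genes and of 5 wider lists in the 9 comparisons, with all genes tested as a vertical tick. Right: percent of each list's tested genes with an adjusted p under 0.05, to the right where higher and to the left where lower. ER chaperones stand farthest from all genes in the day 12 node against naive cells (median 1.24), and the 9 genes in skin, liver and lung against spleen (0.73, 0.46 and 0.63).

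Among themselves the 9 genes formed no single profile over the 32 libraries. The highest Pearson correlation of log2 levels was 0.78, between Dnajb9 and Atf4, followed by 0.70 for Hspa5 and Xbp1. Within groups, that is, after each group's mean was removed, Hspa5 correlated with Pdia4 at 0.86, with Herpud1 at 0.82 and with Xbp1 at 0.80. Pdia4 and Dnajb9 stood at -0.12 over libraries and at 0.71 within groups. Libraries of a group share a tissue but not a constant mix of cells. Plasma cell markers summed to 85.9 to 38300 TPM within lung and to 1060 to 13600 TPM within spleen. T cell markers summed to 1590 to 10100 TPM within liver. Removing group means leaves this variation in place, and its part in the correlations was not tested. These values are descriptions over 32 libraries.

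The genes most like each member were sought among 7305 well-expressed genes by the same correlation. Dnajb9 was most like Ppp1r15a (0.926), Ier2 (0.922) and Btg2 (0.919), of which Ier2 is 1 of the immediate early genes summed above. Hspa5 was most like Bcl2l1, the gene of the survival protein Bcl-xL (0.933), Odc1 (0.882) and Plk3 (0.848). Atf4 was most like Tob2 and Tgif1 (0.862 each) and Sertad1 (0.851). Herpud1 was most like Atp6ap1 (0.906), Tmem64 (0.899) and Ccdc117 (0.894), and Pdia4 was most like Snx3 (0.876), Sdhd (0.869) and Nans (0.85). For Xbp1 the 3 were Slc46a3, Ppapdc1b and B4gat1 (0.81 each), and for Ddit3 they were Plbd2 (0.909), St3gal4 (0.892) and BC031181 (0.886). The least abundant genes had lower values. Trib3 was most like Rcor3 (0.682), Marveld1 (0.665) and Klhl21 (0.652). Chac1 was most like Cxcr2 (0.643), Rdh12 (0.623) and S100a9 (0.584), of which S100a9 is 1 of the myeloid markers summed above.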

How the data were processed

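Bulk RNA libraries of 8 groups of 4 were grouped by their titles. Bowtie and the build mm10 are named in the submitters' processing notes, without version, annotation or counting step. The deposited values are natural log values of TPM + 1 by the authors, as the values show: converted back, they are multiples of 0.01 TPM and sum to between 999999.06 and 1000000.8 TPM per library. They hold no depth, so no counting interval is given.

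Levels were converted to log2(TPM + 1). Genes that reached 1 TPM in 4 libraries were tested with limma 3.58.1 in R 4.3.3 (variance trend, 24 residual degrees of freedom, 8 groups in 1 fit), with Benjamini-Hochberg adjustment over all genes and calls under 0.05. The fit was checked on simulated data. Other steps used pandas 2.3.3 and NumPy 2.4.6 in Python 3.11.15, exact tests SciPy 1.17.1 and figures Matplotlib 3.10.9. Gene positions are from GENCODE and promoters from RefSeq.

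The 9 genes, wider lists and tests were chosen with earlier results of these data known. All 9 genes are named, up to 3 called genes per wider list and comparison, and the 3 most correlated genes per member among those of mean log2 3 or more, without predicted genes. Other list members named for identity were outside this rule. Alternatives were no filter, a 5 TPM filter, a pseudocount of 0.1, only the 2 groups, weights per group, quantile normalization, a replicate block, each library left out, and a fit without the 5 libraries low in T cell markers.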

Additional observations from a re-analysis of the deposited data

Results flagged for a closer look

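In 5 of 72 sets of 4 libraries (each gene in each group) the lowest or highest library lay far from the other 3, with a gap above the critical value of Dixon's test at 95%. Chance gives about 1 in 20 such sets. Lung replicate 2 was low for Xbp1, at 4.37 TPM, and for Pdia4, at 58.59 TPM. Liver replicate 2 is listed at 0.0 TPM for Ddit3. Chac1 stood high in liver replicate 4, at 6.73 TPM, and is listed at 0.0 TPM in naive replicate 1, where the other naive libraries had 0.04 TPM.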

How the results depend on the processing

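The 9 genes were recomputed in 3581 values under the alternatives, of which 3495 kept their side of the threshold, 76 newly passed, 8 no longer passed and 2 reversed. Among the values that kept their side, 50 of the 3229 that were never called changed sign. Both reversals were Ddit3 in liver against spleen, at 1.41 without liver replicate 2 (and -0.89 without liver replicate 3, against -0.17 as deposited) and 1.12 without the 5 libraries low in T cell markers. The causes were not tested.

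Counts of all genes called moved as follows. With no filter on low values liver against spleen had 1586. A filter of 5 TPM gave 12 for lung against spleen. A pseudocount of 0.1 gave 837 for lymph node memory against day 12, 14 for lung against spleen and 903 for skin against tumor. Only the 2 groups gave 10742 for day 12 against naive, 9319 for tumor against naive, 6919 for memory against day 12, 4 for lymph node memory against spleen, 271 for skin against spleen, and 0 for lung and for liver against spleen. Weights per group gave 11201 for day 12 and 9679 for tumor against naive, 7521 for memory against day 12, 188 for lymph node memory against spleen, 6 for lung, 184 for liver, 2520 for spleen against naive, 2239 for skin against tumor and 15135 across the 8 groups. Quantile normalization gave 1581 for liver against spleen and 2299 for skin against tumor. Without the 5 libraries low in T cell markers there were 4287 for day 12 against naive, 2948 for spleen against naive, 3626 for memory against day 12, 631 for lymph node memory against spleen, 2623 for skin, 161 for lung and 594 for liver against spleen, and 2584 for skin against tumor. As deposited, the counts were 2189, 3027, 1201, 1463, 95, 1515, 22, 2681, 1448 and 9259 for the day 12 node, tumor and spleen against naive, memory against day 12, lymph node memory, skin, lung and liver against spleen, skin against tumor and all 8 groups.

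Of the 9 genes, day 12 against naive had 0 called, and 7, 6, 1 and 3 with only the 2 groups, weights per group, quantile normalization and without the low T cell libraries. Tumor against naive had 0, and 1 with a 5 TPM filter, 6 with only the 2 groups, 6 with weights, 1 with quantile normalization and 1 without the low T cell libraries. Memory against day 12 had 0, and 5, 4 and 1 with only the 2 groups, weights and without the low T cell libraries. Skin against spleen had 3, and 0 with only the 2 groups. Liver against spleen had 1, and 0 with only the 2 groups, 0 with weights, 2 with quantile normalization and 3 without the low T cell libraries, which gave 1 each for lymph node memory and for lung against spleen. Weights gave 9 across the 8 groups.

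Leaving out each of the 32 libraries gave these ranges of all genes called and of the 9 genes: day 12 against naive 1557 to 3014 and 0 to 2; tumor against naive 2158 to 4164 and 0 to 1; spleen against naive 782 to 1761 and 0 to 0; memory against day 12 816 to 2343 and 0 to 1; lymph node memory against spleen 40 to 185 and 0 to 0; skin against spleen 1030 to 2189 and 3 to 3; lung against spleen 16 to 56 and 0 to 1; liver against spleen 1214 to 5351 and 0 to 2; skin against tumor 977 to 2146 and 2 to 3; all 8 groups 8141 to 10685 and 4 to 6.

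The labels do not say whether libraries with the same replicate number share an animal or a batch. Same-numbered libraries of the groups compared were correlated over all genes tested, after each group's mean was removed. These correlations ran from -0.374 to 0.437 and exceeded 0.1 for all 4 numbers in no comparison. These correlations cannot settle whether a batch is shared. Replicate 4 had the lowest T cell marker sum of its group in skin, tumor, liver, lymph node memory cells and spleen. A replicate block changed no call of the 9 genes and gave 2250 genes for day 12 against naive, 1623 for skin against spleen and 1527 for skin against tumor. Depth is unknown, so low values of Trib3 and Chac1 carry an unknown counting error.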
